A study of Mus musculus with 3 samples.

Results

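Fatty acids are the main fuel of the working heart, and 32 mouse genes that bring them into the cell and oxidise them were followed across the cell classes and groups of a pressure-overload study. The genes were taken by symbol from a list, and all 32 were found among the 29994 gene symbols of the count tables. RNA had been counted per droplet barcode (10x Genomics) in ventricular tissue of C57B6 mice that had been kept frozen. There were 3 groups, all from the same strain and tissue. Sham mice received vehicle, TAC mice underwent transverse aortic constriction, which narrows the aorta and loads the left ventricle, and received vehicle, and TAC+ART mice were TAC mice given artesunate, an antimalarial drug of the artemisinin family. Each group is 1 library of 3 pooled hearts, so no hearts can be told apart, there are no replicates and no test between groups was possible. The sources used here do not give doses, times or ages of the mice, or whether whole cells or nuclei were loaded. Levels are UMIs (counted RNA molecules) of a gene scaled to the total UMIs of the same class and library (CPM). Values given as 3 in a row are for Sham, TAC and TAC+ART in that order. All intervals are 95% intervals that cover counting error only, not differences between hearts or preparations.

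The genes form a path. Lipoprotein lipase (Lpl) frees fatty acids at the capillary wall, Cd36 and Slc27a1 take them in, the binding proteins Fabp3 and Fabp4 carry them and Acsl1 couples them to coenzyme A. Cpt1b, Slc25a20 and Cpt2, the carnitine shuttle, move the acyl group into the mitochondrial matrix, where the beta-oxidation enzymes shorten it step by step and the electron transfer flavoprotein genes Etfa, Etfb and Etfdh hand its electrons to the respiratory chain. Ppara, a nuclear receptor for fatty acids, and its coactivator Ppargc1a drive transcription of many of these genes. Acacb makes malonyl-CoA, which holds back the shuttle, Mlycd breaks malonyl-CoA down, and Pdk4 shuts pyruvate out of oxidation. Lower expression of this programme is a known feature of the failing heart.

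Promoters were looked at because Ppara and the related ERR receptors bind the letters AGGTCA and many of the genes are textbook targets. RefSeq windows on GRCm38.p6, from 250 bases before to 50 bases after the start site, were matched by symbol for 26 of the 32 genes and gave 29 promoters. Acaa2, Lpl, Fabp4, Cpt1b, Decr1 and Ces1d were not matched. Both strands were searched. The direct repeat bound by PPAR with RXR, which is AGGTCA, any base (N) and AGGTCA again, was in 0 of the 29 promoters and in 0.0396% of all 32851 promoters of the table. The extended form TNAAGGTCA, bound by ERR, was in 0 of the 29 and in 1.28% of all. The short form AGGTCA, which both longer motifs contain, was in 6 of the 29 (20.7%) and in 16.3% of all. These 6 belong to Acacb, Acadm, Acadvl, Cd36, Echs1 and Ucp3. The windows of 3 genes are shown because they stand for the response patterns described below: Ucp3 (chr7:100472741-100473040, + strand) and Acacb (chr5:114165268-114165567, + strand) were lower in TAC, and Acadvl (chr11:70015379-70015678, - strand) was higher in TAC over the whole cardiomyocyte-like class. Capitals mark AGGTCA or, where it lies on the other strand, TGACCT.
Ucp3: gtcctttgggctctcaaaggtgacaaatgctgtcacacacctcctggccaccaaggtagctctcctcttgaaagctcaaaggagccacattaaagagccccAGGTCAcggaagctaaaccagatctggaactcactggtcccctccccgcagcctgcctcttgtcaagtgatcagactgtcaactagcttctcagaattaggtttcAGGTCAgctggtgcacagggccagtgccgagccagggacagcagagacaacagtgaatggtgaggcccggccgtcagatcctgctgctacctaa
Acacb: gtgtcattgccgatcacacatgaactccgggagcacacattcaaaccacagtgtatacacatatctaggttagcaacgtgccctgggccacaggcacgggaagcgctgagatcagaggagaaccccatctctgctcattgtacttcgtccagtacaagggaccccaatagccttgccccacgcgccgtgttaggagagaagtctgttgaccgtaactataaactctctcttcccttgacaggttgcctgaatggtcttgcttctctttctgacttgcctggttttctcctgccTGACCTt
Acadvl: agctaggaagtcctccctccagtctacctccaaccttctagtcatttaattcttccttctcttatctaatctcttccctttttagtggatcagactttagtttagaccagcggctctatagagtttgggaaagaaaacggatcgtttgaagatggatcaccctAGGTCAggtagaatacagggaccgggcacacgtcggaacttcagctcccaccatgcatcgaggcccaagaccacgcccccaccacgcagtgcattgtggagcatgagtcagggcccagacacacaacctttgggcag
Ucp3 was the gene with 2 matches, at -149 and -44 from the start site. The match of Acadvl lies at -87 and that of Acacb at 44 after the start site. A match says only that these letters are present. The 2 longer motifs are so rare over all promoters that 0 of 29 cannot tell these genes from others. Inexact sites and sites outside the windows were not searched.

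The libraries held 3752 (Sham), 7413 (TAC) and 6856 (TAC+ART) barcodes with 17710689, 37658150 and 33364667 UMIs, and 3638, 6972 and 6480 barcodes were kept after limits and removal of likely doublets. Barcodes were assigned to classes by marker genes that are not among the 32. Cardiomyocyte-like barcodes numbered 301, 209 and 341, with all 10 markers of the class detected, and endothelial-like barcodes 1061, 1815 and 1553. Pairs of libraries share 20 to 27 barcode sequences. No barcode was classed as an adipocyte, and the adipocyte markers of the table summed to at most 3.27 CPM in cardiomyocyte-like barcodes.

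The genes are mostly cardiomyocyte genes. In every library, 29 of the 32 were highest in cardiomyocyte-like barcodes among the 7 classes compared, and 23 stood at 2 times the median of the other classes or more. Cd36 and Fabp4 were the exceptions and were highest in endothelial-like barcodes in every library, where Fabp4 reached 1942, 2415 and 2504 CPM. Acot2 was highest in different classes in different libraries. Levels outside the cardiomyocyte can hold free RNA of cardiomyocytes. The 10 cardiomyocyte markers summed together stood at 6.96% to 10.3% of their cardiomyocyte level in the 6 other classes, and those from genes shorter than 30 kb at 12.1% to 19.8%. Single markers of that length ran from 7.94% (Myh6) to 45.5% (Myl3). Fabp3, a short gene, lay within that range at 14.3% to 35.5% of its cardiomyocyte level in endothelial-, fibroblast-, macrophage- and pericyte-like barcodes.

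**Figure D1:**
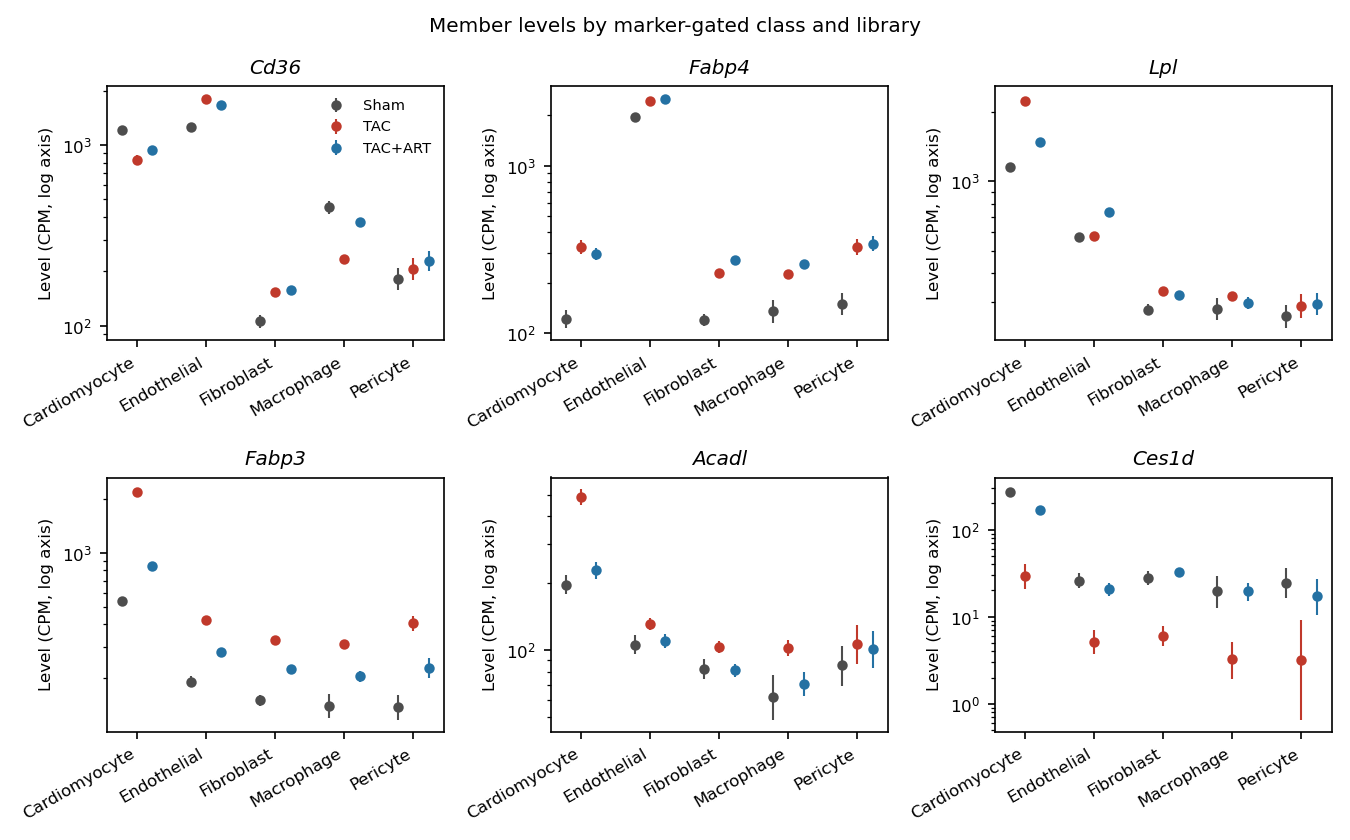
Level (CPM, log axis) of 6 genes in 5 marker-gated classes (x axis) in Sham, TAC and TAC+ART; points are UMI sums of a class and bars are 95% counting intervals. Cd36 and Fabp4 are highest in endothelial-like barcodes and Ces1d is lowest in TAC in each of the 5 classes.

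Cardiomyocyte-like barcodes were of 2 kinds, and the summed level of the fatty acid genes differed between the kinds more than between the groups. Most had little mitochondrial RNA and much Malat1, a long noncoding RNA kept in the nucleus. The others had over 2% mitochondrial UMIs and little Malat1. The limit of 2% was set after the data were seen, and 41, 73 and 65 barcodes of Sham, TAC and TAC+ART lie between 1% and 4%. Of the 301 Sham barcodes, 64 were over 2% (21.3%, exact interval 16.8 to 26.3). The same held for 120 of 209 TAC barcodes (57.4%, 50.4 to 64.2) and 101 of 341 TAC+ART barcodes (29.6%, 24.8 to 34.8). The 2 kinds are called low and high barcodes from here on. Clusters made without the 32 genes split the class in a similar way, with 1 cluster holding 37 Sham barcodes, 104 TAC barcodes and 84 TAC+ART barcodes, of which 37, 103 and 83 were over 2%. Mitochondrial genes and Malat1 were not held out of the clustering, so the clusters and the 2% limit may rest on the same RNA. Another cluster held 255, 99 and 252 barcodes, of which 21, 13 and 14 were over 2%, so that of the 64 high Sham barcodes 21 lay with the low ones. Thus most of the class lay in the low cluster in Sham and TAC+ART (84.7% and 73.9%), and 49.8% lay in the high cluster in TAC.

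The summed level of the 32 genes was 7392, 6198 and 6166 CPM in low barcodes of Sham, TAC and TAC+ART, and 14625, 17066 and 15993 CPM in high barcodes. Malat1 was 13.3%, 14.4% and 12.4% of UMIs in low barcodes and 3.29%, 2.26% and 2.75% in high ones. Of all genes measured, 24.6%, 33.5% and 29.3% were at least 1.5-fold higher in high than in low barcodes and 34.1%, 41.2% and 39.1% lower. The fatty acid genes past that limit upward were 18 of 30 measured, 20 of 28 and 23 of 29. Those past it downward were 6, 4 and 5. In all 3 libraries, 17 genes stood at least 1.5-fold higher in high barcodes. They were Acaa2, Acadl, Acadm, Acads, Acadvl, Cpt2, Decr1, Echs1, Eci1, Etfb, Fabp3, Fabp4, Hadh, Hadha, Hadhb, Lpl and Pdk4. Acacb, Ppara, Ppargc1a and Slc27a1, which include both transcription regulators, stood at least 1.5-fold lower in high barcodes in all 3 libraries. The share of all genes past 1.5-fold in all 3 libraries was not counted. The 17 genes span 4.49 kb (Fabp4) to 38.7 kb (Hadh), and the 4 lower ones 18.4 kb (Slc27a1) to 113 kb (Ppargc1a). The part of gene length, or of nuclear RNA, in these differences was not tested. In TAC, Fabp3 was higher in high barcodes by 3.17 on the log2 scale (3.00 to 3.34) and Ppara lower at -2.67 (-3.20 to -2.21). High barcodes were also shallower, with medians of 3488, 4446 and 3866 UMIs against 8087, 7823 and 7856, and held more cardiomyocyte marker RNA (79769, 83129 and 80857 CPM against 55000, 53526 and 59514). Markers of other cells were also higher in them, with endothelial sums of 1143, 606 and 874 CPM against 127, 320 and 225, macrophage sums of 262, 561 and 627 CPM against 74.2, 235 and 195, and fibroblast sums of 1758, 3186 and 3506 CPM against 486, 1165 and 1482. Their part in the higher levels, that of Fabp4 included, was not tested.

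**Figure D2:**
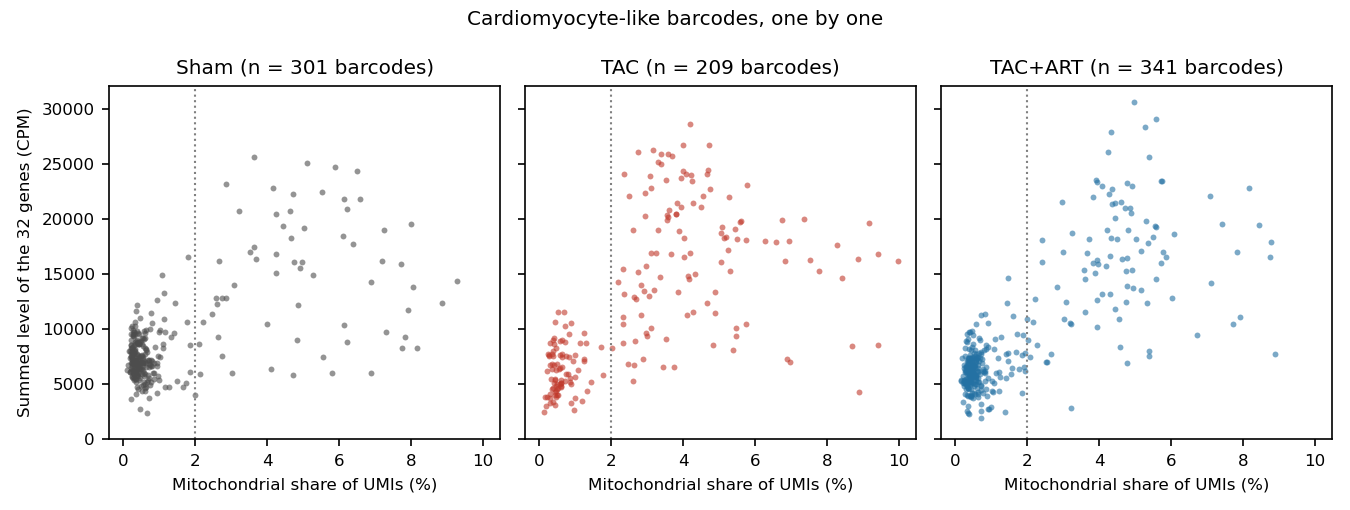
Summed level of the 32 genes (CPM, y axis) against the mitochondrial share of UMIs (%, x axis) for each cardiomyocyte-like barcode, by library; the dotted line is 2%. Low barcodes form 1 dense group in each library, and TAC has the largest share of barcodes over 2% (57.4%).

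Over the whole cardiomyocyte-like class, TAC was compared with Sham to see how the path stands in the pressure-loaded heart. Each ratio is the log2 of CPM over CPM after adding 0.5 counts, and a gene counts as measured with at least 50 UMIs in both libraries together and as higher or lower from 1.5-fold on. Of 31 measured genes, 13 were higher in TAC and 5 lower, with a median of 0.31, while 22.9% of all 7639 measured genes were higher and 20.7% lower, with a median of -0.07. Within the 2 kinds of barcode the picture was another. Among low barcodes, 2 of 29 measured genes were higher in TAC and 8 lower, with a median of -0.29 (all genes 13.2% higher and 13.9% lower, median -0.04). Among high barcodes, 6 of 29 were higher and 4 lower, with a median of 0.22 (all genes 19.1% higher and 22.7% lower, median -0.03). The part of the larger share of high barcodes in the whole-class ratios was not tested beyond these values. High barcodes were themselves a mix that differed between libraries. Of them, 37 of 64 in Sham, 103 of 120 in TAC and 83 of 101 in TAC+ART lay in the high cluster. This limit holds for every ratio within high barcodes given below, and its part in them was not tested.

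**Figure D3:**
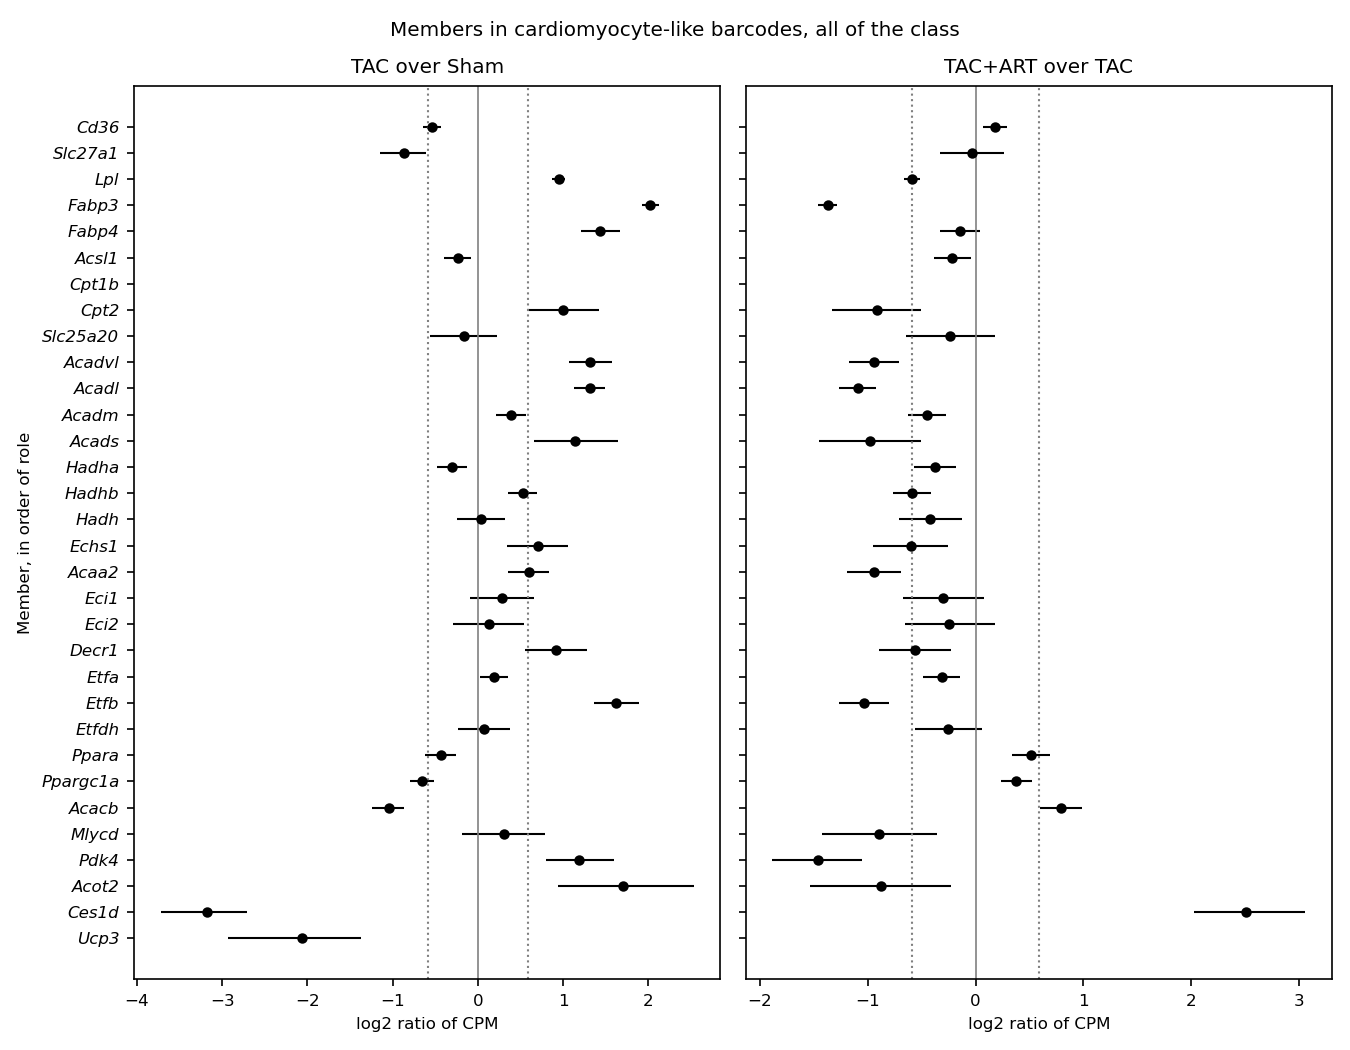
Log2 ratio of CPM (x axis) of each measured gene (y axis, by role) in the whole cardiomyocyte-like class, for TAC against Sham and for TAC+ART against TAC; bars are 95% counting intervals and dotted lines mark 1.5-fold. Fabp3 has the highest TAC over Sham ratio (2.02) and Ces1d the lowest (-3.17).

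Gene length moved with the same ratios. In the whole class, measured genes that span under 10 kb had a median TAC over Sham ratio of 0.86 and those over 100 kb one of -0.34, and TAC+ART over TAC had the reverse, with -0.56 and 0.23. The 5 measured fatty acid genes under 10 kb, Fabp3, Fabp4, Acadvl, Acads and Acot2, were all higher in TAC, as were 58.3% of all genes of that length. The 3 over 100 kb, Cd36, Acacb and Ppargc1a, all had ratios under 0. With the median of genes of like span taken out, 11 were higher and 4 lower, beside 19.5% and 18.2% of all genes. Acadvl (0.25), Echs1 (0.18), Fabp4 (0.36) and Ppargc1a (-0.31) then fell within 1.5-fold, and Hadhb (0.59) passed it.

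The entry genes went different ways. Fabp3, the heart-type binding protein (chromosome 4, 130308595 to 130315463), stood at 539, 2192 and 848 CPM over the whole class. It was highest in TAC among both low barcodes (316, 488 and 266 CPM) and high barcodes (2103, 4391 and 3222 CPM). Its TAC over Sham ratio was 0.63 (0.43 to 0.82) in low and 1.06 (0.93 to 1.20) in high barcodes. Of the genes measured in both kinds, it was the 1 past 1.5-fold upward in both. Lpl was level between the libraries within each kind. It stood at 1152, 2223 and 1476 CPM over the class, at 684, 778 and 885 in low and at 4431, 4088 and 3890 in high barcodes. The differences within each kind were under 1.5-fold.

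Cd36, the fatty acid translocase (chromosome 5, 17781690 to 17888801), stood at 1204, 831 and 940 CPM. In both kinds of barcode it was lower in TAC than in Sham, with -0.40 (-0.53 to -0.27) in low and -0.64 (-0.87 to -0.42) in high barcodes. Slc27a1, a transport protein with acyl-CoA synthetase activity, stood at 231, 126 and 123 CPM and was low in both TAC libraries. Its TAC over Sham ratio was -0.53 (-0.84 to -0.24) in low barcodes and -0.71 (-1.45 to 0.05) in high ones. Acsl1, the main heart acyl-CoA synthetase, stood at 453, 385 and 331 CPM, within 1.5-fold in each of the 3 comparisons over the class, but was lower in TAC+ART than in Sham within low barcodes, at -0.61 (-0.77 to -0.45). Fabp4, the binding protein of fat and vessel cells, stood at 121, 328 and 297 CPM, a level that fibroblast-like barcodes also had (120, 230 and 274 CPM), and the part of free RNA in it was not tested.

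Of the carnitine shuttle, Cpt1b, the muscle form of the entry enzyme, was hardly counted, with 14, 4 and 11 UMIs, and gave no ratio. It overlaps another annotated gene, Gm44502, on the same strand. Cpt2, the inner membrane enzyme, stood at 41.7, 83.3 and 44.1 CPM over the class, but its TAC over Sham ratio within low barcodes was 0.25 (-0.49 to 0.93) and within high ones 0.35 (-0.27 to 1.04). Slc25a20, the carnitine carrier, stood at 76.8, 68.6 and 58.2 CPM. For TAC+ART over Sham it passed 1.5-fold in opposite directions, at -0.69 (-1.09 to -0.30) in low and 0.71 (-0.15 to 1.70) in high barcodes, the latter on 41 and 15 UMIs.

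The 12 beta-oxidation enzymes had different counts in the whole class and in the 2 kinds of barcode. Over the class, 6 of 12 were higher in TAC than in Sham and 0 lower, with a median of 0.56, beside 22.9% and 20.7% of all genes. Among high barcodes 3 of 12 were higher and 0 lower, with a median of 0.23, beside 19.1% and 22.7% of all genes. Among low barcodes 0 of 11 were higher and 4 were lower, with a median of -0.55, beside 13.2% and 13.9% of all genes. The 4 lower ones were Hadh, Eci1, Hadha and Acaa2. Hadh, the short-chain hydroxyacyl-CoA dehydrogenase, stood at 110 CPM in low Sham barcodes, 44.9 in TAC and 70.2 in TAC+ART, a TAC over Sham ratio of -1.28 (-1.89 to -0.75). Hadha, the alpha subunit of the trifunctional protein, stood at 351, 222 and 172 CPM there and was highest in Sham, with -0.66 (-0.93 to -0.41). Hadhb, its beta subunit, was at -0.29 (-0.58 to -0.02) in the same barcodes. Eci1, an enoyl-CoA isomerase, was at -0.86 (-1.64 to -0.20) and Acaa2, the matrix thiolase, at -0.62 (-1.11 to -0.19).

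The first-step dehydrogenases differed among themselves. Acadl, for long chains, stood at 161, 154 and 136 CPM in low barcodes of Sham, TAC and TAC+ART, which lie close together. In high barcodes it stood at 448, 921 and 606 CPM and was highest in TAC, with a TAC over Sham ratio of 1.03 (0.75 to 1.34). Acadm, for medium chains, had opposite signs, with -0.57 (-0.88 to -0.28) in low and 0.37 (0.08 to 0.67) in high barcodes. Acadvl, for very long chains, stood at 103, 258 and 134 CPM over the class and differed over the class more than within either kind. Its ratio was 1.32 (1.07 to 1.58) over the class but 0.03 (-0.55 to 0.56) in low and 0.24 (-0.07 to 0.57) in high ones. Acads, for short chains, stood at 29.9, 66.2 and 33.7 CPM over the class, with too few UMIs in low barcodes for the comparisons that include TAC. Echs1, the short-chain hydratase, and Decr1, which handles unsaturated chains, were higher in high TAC barcodes at 0.66 (0.10 to 1.30) and 0.68 (0.12 to 1.30). Eci2, a second isomerase, stood at 60.7, 66.2 and 56.0 CPM over the class, near-level in each library.

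The electron transfer genes stayed within 1.5-fold in both kinds of barcode. Etfb stood at 91.0, 280 and 137 CPM over the class, a ratio of 1.62 (1.36 to 1.89), against 0.29 (-0.32 to 0.85) in low and 0.47 (0.16 to 0.81) in high barcodes. Etfa stood at 354, 404 and 324 CPM and Etfdh, which passes the electrons to ubiquinone, at 114, 120 and 101 CPM.

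**Figure D4:**
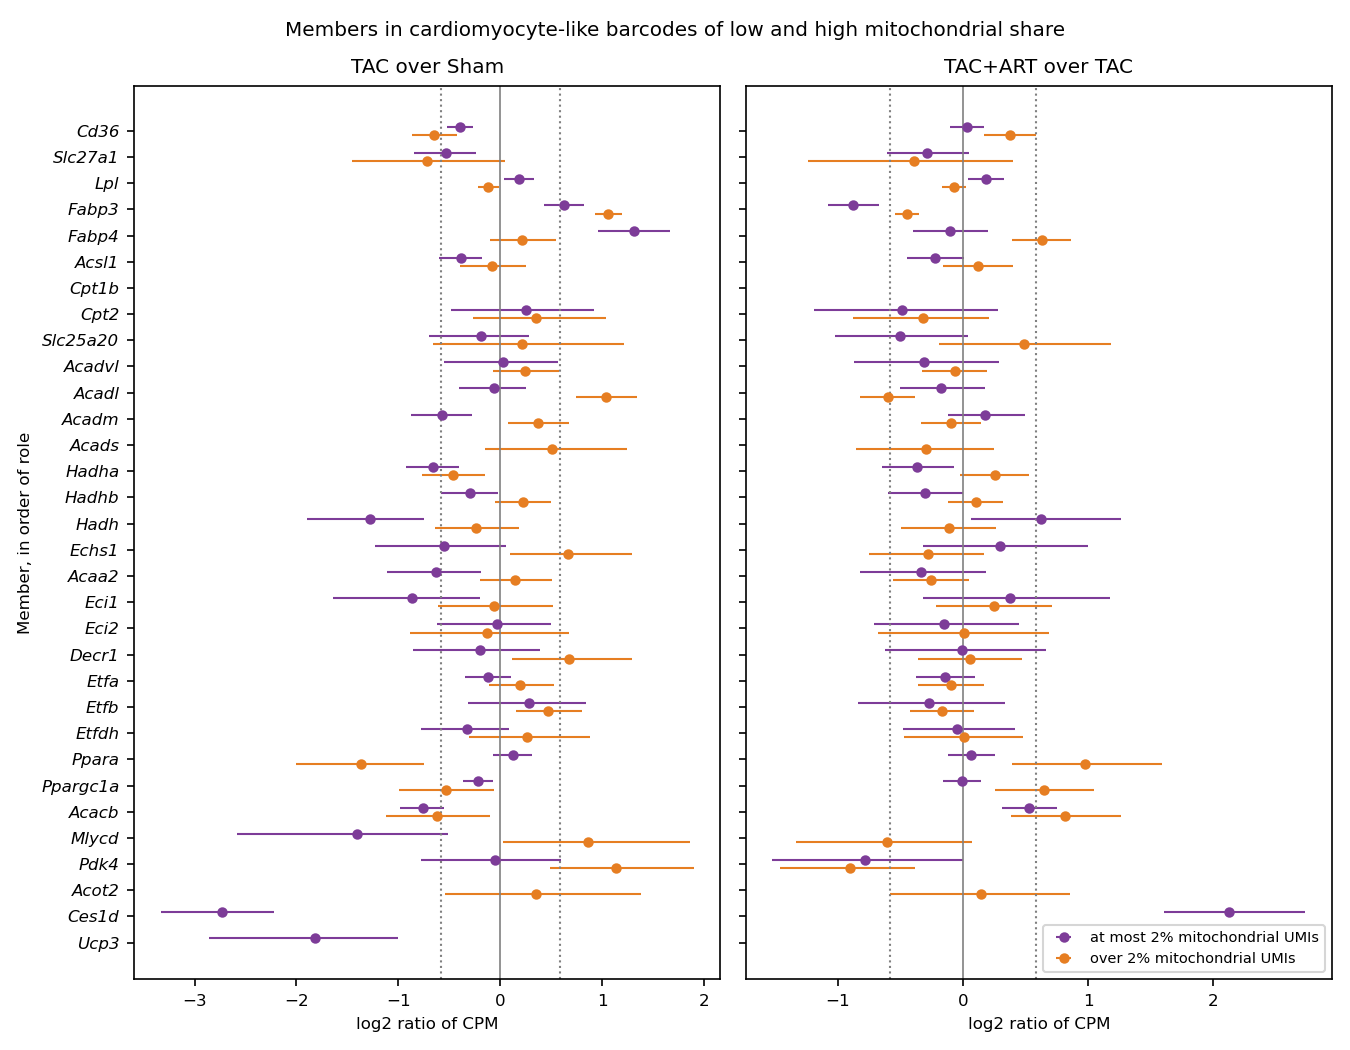
Log2 ratio of CPM (x axis) of each measured gene (y axis, by role) in cardiomyocyte-like barcodes with at most 2% and with over 2% mitochondrial UMIs; bars are 95% counting intervals and dotted lines mark 1.5-fold. For TAC over Sham, Fabp3 lies past the right line and Acacb past the left line in both kinds of barcode, and Mlycd lies past opposite lines (-1.41 and 0.86).

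Of the 5 genes that regulate the path, Acacb and Ppargc1a were lower in TAC over the class and Pdk4 higher. Acacb (chromosome 5, 114146535 to 114250761) stood at 506, 244 and 423 CPM over the class. It was lowest in TAC among low barcodes (546, 322 and 464 CPM) and among high ones (220, 144 and 254 CPM). Of the genes measured in both kinds, it was the 1 past 1.5-fold downward for TAC over Sham in both. Ces1d and Ucp3 had too few UMIs in high barcodes to be measured there, and the share of all genes past 1.5-fold in both kinds was not counted. The Acacb ratios were -0.76 (-0.98 to -0.55) and -0.61 (-1.12 to -0.09). Ppargc1a stood at 746, 475 and 618 CPM over the class, with -0.21 (-0.36 to -0.07) in low and -0.53 (-0.99 to -0.06) in high barcodes. Ppara stood at 411, 304 and 434 CPM. It was near-level in low barcodes at 0.12 (-0.07 to 0.31) and lower in high TAC barcodes at -1.37 (-2.01 to -0.75), where TAC held 40 UMIs and Sham 51. Mlycd, the counterpart of Acacb, had opposite signs, with -1.41 (-2.59 to -0.51) in low and 0.86 (0.03 to 1.86) in high barcodes, on 10 and 53 TAC UMIs. Pdk4 stood at 45.0, 103 and 37.3 CPM over the class, and its ratio of 1.14 (0.49 to 1.90) in high barcodes stood beside -0.051 (-0.77 to 0.59) in low ones.

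Ces1d and Ucp3 had the lowest ratios. Ces1d, a carboxylesterase with triglyceride hydrolase activity (chromosome 8, 93166068 to 93197838), stood at 269, 29.4 and 169 CPM, so that TAC stood 9.02-fold below Sham. TAC was lowest in low barcodes (292, 43.5 and 193 CPM) and in high ones (103, 11.2 and 71.7 CPM), and the low-barcode ratio was -2.73 (-3.33 to -2.22). High barcodes held 27, 6 and 31 Ces1d UMIs, too few to count as measured in the comparisons that include TAC. Ucp3, the muscle uncoupling protein (chromosome 7, 100472990 to 100486432), stood at 59.7, 13.9 and 13.2 CPM and was low in both TAC libraries, on 126, 17 and 29 UMIs. Its TAC over Sham ratio in low barcodes was -1.81 (-2.86 to -1.01). Acot2, a mitochondrial acyl-CoA hydrolase, stood at 10.4, 34.3 and 18.7 CPM on 22, 42 and 41 UMIs. Ces1d and Acot2 have close relatives in the genome with which reads could be shared, and their values are uncertain in that respect.

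Shares of barcodes with a UMI, after each was thinned to 1000 UMIs, gave the same order for Ces1d. The Sham share was 23.7% (19.0 to 29.0), the TAC share 0.957% (0.116 to 3.41) and the TAC+ART share 13.8% (10.3 to 17.9), against 67.8%, 6.70% and 48.7% before thinning. The thinned shares in endothelial-like barcodes were 3.20%, 0.716% and 2.26%, and the interval of the TAC cardiomyocyte share includes that of TAC. For the thinning, 2 Sham cardiomyocyte-like barcodes were too shallow. Median depths before thinning were 7624, 5470 and 6579 UMIs in cardiomyocyte-like and 3621, 4198 and 3982 in endothelial-like barcodes.

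TAC+ART was then compared with TAC to see how the genes stood under artesunate. Over the whole class, 2 of 30 measured genes were higher in TAC+ART and 13 lower, with a median of -0.44, while 11.1% of all genes were higher and 17.7% lower. The 2 higher ones were Ces1d at 2.50 (2.03 to 3.06) and Acacb at 0.79 (0.60 to 0.98). The TAC library is part of this ratio and of the one against Sham, so opposite signs in the 2 ratios are not independent of each other. Within low barcodes the counts were 2 higher (Hadh and Ces1d) and 2 lower (Fabp3 and Pdk4) of 27, with 8.18% and 9.95% of all genes. Within high barcodes they were 4 higher (Fabp4, Ppara, Ppargc1a and Acacb) and 3 lower (Acadl, Mlycd and Pdk4) of 29, with 11.6% and 6.82% of all genes.

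Of these, Pdk4 was lower in TAC+ART than in TAC in both kinds of barcode, at -0.78 (-1.52 to 0.00) on 39 and 26 UMIs in low and -0.90 (-1.46 to -0.38) in high barcodes. Ces1d stood at 2.13 (1.61 to 2.74) in low barcodes. Acacb was at 0.53 (0.31 to 0.75) in low and 0.82 (0.39 to 1.26) in high barcodes. Fabp3 was at -0.88 (-1.08 to -0.67) in low and -0.45 (-0.54 to -0.35) in high barcodes. Of the beta-oxidation enzymes, 6 of 12 were lower over the class, beside 17.7% of all genes. In low barcodes 1 of 11 was higher and 0 lower, beside 8.18% and 9.95% of all genes. In high barcodes 0 of 12 were higher and 1 lower, beside 11.6% and 6.82%.

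Set directly against Sham, TAC+ART had 4 genes higher (Acot2, Etfb, Fabp3 and Fabp4) and 4 lower (Ces1d, Hadha, Slc27a1 and Ucp3) of 31 over the whole class, beside 11.1% and 8.14% of all genes. In low barcodes 1 of 30 was higher and 11 were lower, with a median of -0.37, where 7.99% and 7.62% of all genes were. In high barcodes 4 of 28 were higher and 1 lower, where 12% and 15.6% of all genes were. Slc27a1 was lower and Fabp4 higher in both kinds. Ucp3 stood at -2.16 (-2.81 to -1.59) over the class, beside -2.07 (-2.93 to -1.37) for TAC without the drug.

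The other genes of the pathway, a list of 92, had no shared direction in the whole cardiomyocyte-like class. In TAC over Sham, 16 of 73 measured genes were higher and 12 lower, with a median of -0.10, beside 22.9% and 20.7% of all genes. The lowest were Slc22a5, the carnitine importer, which stood at 62.1 CPM in Sham and 18.0 in TAC (ratio -1.76, -2.51 to -1.13), and Dgat2, which makes triglyceride, at -1.32 (80.1 CPM in TAC), then Pdp1 and Pecr. The highest were Hsd17b10, a matrix dehydrogenase, at 10.4 and 43.3 CPM (2.04, 1.31 to 2.84), the acyl-CoA binding protein gene Dbi at 1.76, the ketone enzyme gene Bdh1 at 1.52 and the lipase gene Pnpla2 at 1.41. In TAC+ART over TAC, 5 of 72 were higher and 14 lower, beside 11.1% and 17.7%. Pdp1 (0.97), Klf15 (0.97), Dgat2 (0.69) and the ERR gene Esrrg (0.63) were the highest, and Nudt19 (-1.33), Plin5 (-1.29), Gpihbp1 (-1.29) and Dbi (-1.28) the lowest. Against Sham, TAC+ART had 4 of 75 higher and 8 lower, beside 11.1% and 8.14%, with Hsd17b10 (0.96), Cav1 (0.95) and Bdh1 (0.59) among the highest and Pecr (-1.26), Slc22a5 (-1.13), Ehhadh (-1.10) and Cpt1a (-0.85) lowest. These ratios were not split by kind of barcode. Gpihbp1 stood at 33.5 CPM in TAC and 13.6 in TAC+ART, on 41 and 30 UMIs, and its level in endothelial-like barcodes, given below, was higher. Endothelial markers summed to 445 and 353 CPM in cardiomyocyte-like barcodes of these libraries, and the part of endothelial RNA in the Gpihbp1 ratio was not tested.

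Endothelial-like barcodes carry the vessel wall end of the path. In TAC over Sham, 3 of 30 measured genes were higher (Acads, Fabp3 and Pdk4) and 3 lower (Ces1d, Ppargc1a and Slc27a1), near the 10.7% and 9.14% of all genes. In TAC+ART over TAC, 4 of 30 were higher (Ces1d, Ppara, Ppargc1a and Slc27a1) and 1 lower (Fabp3), beside 6.19% and 5.65%. With the cardiomyocyte profile subtracted in proportion to the cardiomyocyte markers, 4 of 27 genes were higher in TAC than in Sham (Cd36, Ces1d, Fabp3 and Pdk4) and 0 lower, beside 10.3% and 10.2% of all genes. Ces1d then turned to 1.83, a value that rests on very little RNA because nearly all of its Sham level was subtracted. In Sham it stood at 9.68% of its cardiomyocyte level, and 9.48% was taken off. Fabp3 stood at 0.59, and Ppargc1a and Slc27a1 had no level above 0 left in both libraries. In the same way TAC+ART over TAC had 1 gene higher (Lpl) and 0 lower, for which no share of all genes is given here. Of the 5 calls, 2 had a value left, both in the same direction as before, and 0 were still past 1.5-fold. The same rate was taken off every gene, 10.3% in TAC+ART. Cardiomyocyte markers of 30 kb or more stood there at 4.27% and those under 30 kb at 19.8%. Ppara and Ppargc1a, both over 30 kb, stood at 3.02% and 5.53% of their cardiomyocyte level. Their calls could therefore not be tested in this way. Cd36 stood at 1256, 1800 and 1666 CPM, a TAC over Sham ratio of 0.52 (0.47 to 0.56), and was lowest in Sham. That is the other direction from cardiomyocyte-like barcodes, and this difference was not tested. Fabp4 was also lowest in Sham (1942, 2415 and 2504 CPM), with 0.31 (0.28 to 0.35). Lpl stood at 574, 579 and 736 CPM and was highest in TAC+ART.

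On the list of endothelial fatty acid transport, 0 of 11 genes passed 1.5-fold in either comparison. Gpihbp1, which holds Lpl at the capillary surface, stood at 236, 297 and 235 CPM. The TAC over Sham ratios were 0.12 for Fabp5 (-0.01 to 0.24), -0.31 for Meox2 (-0.42 to -0.20) and -0.21 for Tcf15 (-0.36 to -0.05), the last 2 being transcription factors of fatty acid transport in heart vessels. Pparg stood at 349, 345 and 491 CPM and Aqp7, a glycerol channel, at 91.2, 67.8 and 91.5 CPM. Slc27a3 and Slc27a4, further transport proteins, stayed below 10 CPM in each library. Ces1d was at 26.0, 5.17 and 20.8 CPM in this class, which is 9.68%, 17.6% and 12.3% of its cardiomyocyte level, beside 9.48%, 9.78% and 10.3% for the cardiomyocyte markers. Set against Sham, TAC+ART had 1 of 30 genes higher (Pdk4) and 0 lower in this class, beside 5.68% and 4.32% of all genes.

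In macrophage-like barcodes Cd36, there a scavenger receptor, stood at 453, 234 and 376 CPM and was lowest in TAC. The TAC over Sham ratio was -0.95 (-1.10 to -0.81) and TAC+ART over TAC was 0.68 (0.57 to 0.79). In all, 4 of 28 measured genes were higher (Acadl, Fabp3, Fabp4 and Pdk4) and 2 lower (Cd36 and Ppargc1a) in TAC, beside 12.2% and 11.1% of all genes, and for TAC+ART over TAC 3 of 30 were higher and 3 lower, beside 6.33% and 7.31%. Acsl1 stood at 121, 113 and 132 CPM. In fibroblast-like barcodes, 3 of 30 were higher in TAC (Etfb, Fabp3 and Fabp4) and 3 lower (Ppargc1a, Acacb and Ces1d), beside 18.4% and 12.9% of all genes, and 3 of 30 were higher in TAC+ART than in TAC (Ppargc1a, Acacb and Ces1d) and 0 lower, beside 8.25% and 7.53%. In pericyte-like barcodes, 3 of 19 were higher in TAC (Etfb, Fabp3 and Fabp4) and 1 lower (Acaa2), beside 10.7% and 9.01%, and TAC+ART over TAC had 1 of 20 higher (Echs1) and 1 lower (Fabp3), beside 5.76% and 6.46%. Fabp3, Fabp4, Pdk4, Ces1d and Ppargc1a passed 1.5-fold for TAC over Sham in at least 2 of the endothelial-, fibroblast- and macrophage-like classes and did so in the same direction in cardiomyocyte-like barcodes. In fibroblast-like barcodes Ppargc1a stood at 3.63% (Sham) and 3.77% (TAC) of its cardiomyocyte level, beside 3.32% and 3.17% for cardiomyocyte markers of 30 kb or more. Fabp3 stood there at 28.0% and 14.9%, beside 13.3% and 12.1% for the summed markers under 30 kb. The part of free RNA in these shared directions was not tested.

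TAC+ART was also set against Sham in these classes. In fibroblast-like barcodes 3 of 30 were higher (Etfb, Fabp3 and Fabp4) and 1 lower (Slc25a20), beside 11.2% and 5.75% of all genes. In macrophage-like barcodes 1 of 28 was higher (Fabp4) and 1 lower (Acads), beside 7.79% and 8.25%. In pericyte-like barcodes 3 of 21 were higher (Etfb, Fabp3 and Fabp4) and 0 lower, beside 7.29% and 6.16%. Fabp4, the vessel cell binding protein, was thus higher in TAC+ART in all 3 classes. In TAC+ART it stood in them at 92.4%, 86.8% and 115% of its level in cardiomyocyte-like barcodes, against 843% in endothelial-like barcodes. The part of free RNA in these levels was not tested.

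The 2 smallest classes left many of the genes unmeasured. In endocardial-like barcodes Fabp3 was higher and Hadh lower in TAC of 16 measured genes, beside 11.2% and 11.6% of all genes. There TAC+ART had Acacb higher and Fabp3 lower than TAC of 20 genes, beside 10% and 8.05%, and 1 of 17 genes, Fabp4, higher than Sham and 0 lower, beside 8.89% and 7.8%. In lymphatic endothelial-like barcodes 5 of 16 were higher in TAC than in Sham (Acadl, Acadvl, Acaa2, Fabp3 and Fabp4) and 1 lower (Acacb), beside 14.3% and 10.1%. There TAC+ART had 1 of 18 higher than TAC (Cpt2) and 1 lower (Acadl), beside 6.14% and 8.09%, and 2 of 10 higher than Sham (Cd36 and Fabp4) and 1 lower (Acadm), beside 8.74% and 7.87%.

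Markers of other cells within cardiomyocyte-like barcodes also differed between the groups. The 10 fibroblast markers summed to 645, 2047 and 1880 CPM, the 10 macrophage markers to 97.6, 377 and 280 CPM and the 9 endothelial markers to 254, 445 and 353 CPM. In their own classes in Sham the fibroblast markers summed to 10790 CPM and the endothelial markers to 10070 CPM. Their part in the ratios was not tested.

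Within a library, barcodes with a UMI of Nppa, the natriuretic peptide gene of the loaded heart, were set against those without. They were 19 of 301 in Sham, 169 of 209 in TAC and 127 of 341 in TAC+ART. The median ratio of the measured genes, with over without, was 0.46, 0.35 and 0.29. Fabp3 was higher in barcodes with Nppa in each library, by 1.34 (1.08 to 1.59), 0.93 (0.76 to 1.12) and 1.14 (1.01 to 1.27). Nppa was itself higher in high than in low barcodes (91.1, 2806 and 1080 CPM against 5.42, 261 and 105), so the split was repeated within each kind. Of the low barcodes 9, 62 and 74 held Nppa and of the high ones 10, 107 and 53. The Fabp3 ratio then was 0.29 (-0.36 to 0.83), -0.13 (-0.48 to 0.24) and 0.36 (0.08 to 0.64) in low and 0.34 (0.03 to 0.63), 0.15 (-0.06 to 0.38) and 0.25 (0.09 to 0.41) in high barcodes, all under 1.5-fold.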

How the data were processed

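The authors deposited 1 matrix of UMI counts per library, not normalized. Cell Ranger and Seurat were used on mm10, per the submitters' processing notes. The sources used here do not give their versions, the annotation or the rule by which barcodes had been filtered.

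Barcodes passed with 500 UMIs, 300 genes and no more than 10% mitochondrial UMIs, and doublets were removed per library with a score from simulated doublets (0.8% per 1000 barcodes). A barcode joined a class when its summed marker share reached 25% of the class median, 2 times that of the next unrelated class, with 3 or more markers detected. Clusters used the Leiden method (leidenalg 0.10.2, resolution 1). UMIs were summed per class and library. Sums have exact Poisson, shares exact Clopper-Pearson and ratios exact conditional binomial intervals (scipy 1.17.1), and the ratio was tested on simulated counts. Gene spans came from GENCODE M21 on GRCm38. Every one of the 32 genes is accounted for; other pathway genes were named as the 4 highest and 4 lowest ratios per comparison, of which 1 is not reported here. The 32 genes and the lists were chosen with earlier results of these data known, and the split at 2% mitochondrial UMIs was added after seeing the data.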

Additional observations from a re-analysis of the deposited data

Results flagged for a closer look

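Some genes had ratios of opposite sign in 2 classes of the same libraries. With 1 library per group these differences were not tested. In TAC over Sham, Acaa2 stood at 0.60 in cardiomyocyte-like and -0.34 in fibroblast-like barcodes, and Echs1 at 0.70 and -0.44, while in cardiomyocyte-like barcodes of at most 2% mitochondrial UMIs they stood at -0.62 and -0.55. Cd36 stood at 0.54 in fibroblast-like and -0.95 in macrophage-like barcodes. In TAC+ART over TAC, Lpl stood at 0.34 in endothelial-like and -0.59 in cardiomyocyte-like barcodes. Within the latter, Lpl stood at 0.18 in those of at most 2% mitochondrial UMIs. In those over 2% it was at 4088 CPM in TAC and 3890 CPM in TAC+ART. Mlycd stood at 0.54 in macrophage-like and -0.89 in cardiomyocyte-like barcodes.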

How the results depend on the processing

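No paired analysis was possible because there is 1 library per group. Counts below are genes past the threshold, higher then lower, where they moved by over 1.5 times from those reported. In cardiomyocyte-like barcodes these were 13 and 5 for TAC over Sham, then 2 and 13 with TAC+ART set over TAC, and 4 and 4 with TAC+ART set over Sham. In endothelial-like ones the first pair of comparisons had 3 and 3, and 4 and 1. Alternatives chosen after seeing the data were the splits by mitochondrial share, Nppa within them, and the removal of gene span. In cardiomyocyte-like barcodes of at most 2% mitochondrial UMIs the counts were 2 and 8, 2 and 2, and 1 and 11, and in those over 2% they were 6 higher, 4 and 3, and 1 lower. A 2-fold threshold gave 8 and 3, 1 and 4, and 1 and 1. Gene span taken out gave 1 and 8 for TAC+ART over TAC and 2 higher for TAC+ART over Sham, and the stricter gate 1 higher for the latter. In endothelial-like barcodes, TAC over Sham had 1 lower with at least 200 UMIs, 1 lower at 2-fold, 0 lower with free RNA subtracted and 1 higher over 2% mitochondrial UMIs. TAC+ART over TAC there had 2 lower with the stricter gate, with at most 8000 UMIs and with cells weighted equally, and 0 lower with clusters in place of the gate and with gene span taken out. It had 2 higher with at least 200 UMIs, 1 and 0 at 2-fold, 1 and 0 with free RNA subtracted, and 1 and 2 over 2% mitochondrial UMIs. Fewer genes are measured with at least 200 UMIs, over 2% or with free RNA subtracted, and a 2-fold threshold calls fewer by construction. For the rest the cause was not tested. Free RNA could not be subtracted in cardiomyocyte-like barcodes, whose own markers set its level.

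Of 2116 values of single genes under the alternatives, 1871 stayed within their interval. In all, 136 changed sign, of which 68 were under the splits by mitochondrial share, 18 with free RNA subtracted and 7 with gene span taken out, and 12 concern values past 1.5-fold. With at most 2% mitochondrial UMIs, TAC over Sham turned to -0.062 for Acadl, -0.55 for Echs1, -0.20 for Decr1, -0.62 for Acaa2 and -0.051 for Pdk4, TAC+ART over TAC to 0.30 for Echs1 and 0.18 for Lpl, and TAC+ART over Sham to -0.25 for Fabp3. With over 2%, TAC over Sham turned to -0.12 for Lpl, and TAC+ART over TAC to 0.10 for Hadhb and 0.14 for Acot2. With free RNA subtracted, Ces1d in endothelial-like barcodes turned to 1.83 for TAC over Sham, after nearly all of its Sham level was taken off. Depth limits Cpt1b, Ucp3, Acot2 and Mlycd most, and 1 library per group limits every ratio.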
